A study of Mus musculus with 68 samples.

Results

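The cytosolic ribosomal protein genes encode the proteins of the ribosome that translates messenger RNA in the cytoplasm. They were chosen by name from a lung RNA-seq count table: a symbol that begins with Rpl or Rps and goes on with a number (with an optional a, x, y or l and a further number), or one of Rplp0, Rplp1, Rplp2 and Rpsa. Named pseudogenes and the Rps6k kinases were left out. The rule gave 84 of 23893 entries, 51 of the large subunit and 33 of the small subunit. The symbols Fau, Rpl36al and Rps27rt, among others, fall outside it and are given apart from the members.

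The lungs came from wild-type male mice of the inbred strains CAST/EiJ and C57BL/6J. Mice inhaled either 1,3-butadiene (BD), an industrial gas known as a carcinogen, or clean air, for 6 h on each weekday over 2 weeks. The design holds 6 CAST/EiJ BD libraries (RNA_7 to RNA_12), 7 CAST/EiJ clean-air libraries (RNA_101 to RNA_105, RNA_1 and RNA_2), 6 C57BL/6J BD libraries (RNA_13 to RNA_18) and 5 C57BL/6J clean-air libraries (RNA_106 and RNA_3 to RNA_6). Polyadenylated RNA of lung tissue was sequenced, so every value mixes all cell types of the tissue, and fewer cells of a type cannot be told apart from less RNA per cell. The age of the mice, the BD concentration and the meaning of the numbers over 100 are not given in the sources used here. Nor do the labels say that each library is a separate animal, so p-values measure only the spread between these samples.

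Ribosomal protein genes are expressed in every cell, since each ribosome needs nearly all of the proteins in equal amounts. Their messenger RNAs are known for a stretch of C and T (a 5′ terminal oligopyrimidine tract, or TOP) at the start of the transcript, through which the kinase mTORC1 and the RNA-binding protein Larp1 control their translation together. In human, loss of 1 copy of any of several members is known to cause Diamond-Blackfan anaemia. Mammalian genomes also carry many processed pseudogenes of these genes, and short reads can be shared between a gene and its copies.

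Stretches of C and T near the listed starts of members on which the results turn are shown here; a run in such a window need not lie at the true transcript start and is not by itself a TOP tract. RefSeq start-site sequences of build GRCm38.p6 were matched by symbol for 63 of the 84 members, with 75 listed starts. A run of at least 7 C or T letters on the gene's strand, within 30 bases before to 30 bases after the start, occurred in 60% of these 75 starts, against 33.8% of 32851 starts of all genes. From 250 bases before to 50 after the start, on both strands, CCGGAAG (the core letters bound by ETS factors) occurred in 36% of members' starts against 8.86% of all starts. The letters ATGGCGG (a YY1 core) occurred in 18.7% against 4.06%, and TATAAA in 9.33% against 13.6%. A match describes letters and is not a measured binding site. The windows of 60 bases below are written 5′ to 3′ on the gene's strand, with runs of at least 7 C or T in capitals. In Rplp0 and Rps2 the letters TATAAA, a form of the TATA box, stand after the listed start, and nothing is drawn here from a run or from its absence. For Rpl35a the second of 3 listed starts is shown, and the windows of the others hold no run. The windows show stalk proteins, members lower or higher in CAST/EiJ, members low under BD, and copies with and without a run.
Rplp0, chr5:115559437-115559496, plus strand: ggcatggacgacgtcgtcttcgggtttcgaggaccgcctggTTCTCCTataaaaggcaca
Rplp2, chr7:141447621-141447680, plus strand: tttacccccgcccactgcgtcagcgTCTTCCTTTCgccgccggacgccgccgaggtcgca
Rpsa, chr9:120127736-120127795, plus strand: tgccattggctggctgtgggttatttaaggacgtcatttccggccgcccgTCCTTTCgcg
Rpl38, chr11:114668550-114668609, plus strand: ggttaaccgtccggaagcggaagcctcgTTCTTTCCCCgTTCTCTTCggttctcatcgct
Rpl35a, chr16:33056452-33056511, plus strand: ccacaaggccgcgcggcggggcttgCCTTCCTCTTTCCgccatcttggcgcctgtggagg
Rps2, chr17:24720033-24720092, plus strand: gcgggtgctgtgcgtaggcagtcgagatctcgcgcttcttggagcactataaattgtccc
Rps12, chr10:23787180-23787239, minus strand: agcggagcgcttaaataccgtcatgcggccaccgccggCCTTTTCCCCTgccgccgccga
Rpl37a, chr1:72711230-72711289, plus strand: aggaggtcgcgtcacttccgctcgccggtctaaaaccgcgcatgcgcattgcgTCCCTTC
Rpl22l1, chr3:28805478-28805537, plus strand: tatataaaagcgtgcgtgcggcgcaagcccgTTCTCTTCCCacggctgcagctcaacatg
Rpl3l, chr17:24727796-24727855, plus strand: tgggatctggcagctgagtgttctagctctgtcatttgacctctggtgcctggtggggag

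The 24 libraries held 10597990 to 50001571 counts in genes. Lung markers were high in all of them, the 4 alveolar type 2 genes summing to 12788 TMM-scaled counts per 1000000 (CPM) or more. The library labelled CAST/EiJ BD RNA_8 went against its label. Over 808 genes that differed at least 4-fold (log2 of 2 or more) between the strains in clean air, it was nearer the CAST/EiJ mean in 7.18%, against 94.2% to 97.3% across the 5 remaining CAST/EiJ BD libraries and 5.45% to 10.4% in the C57BL/6J BD libraries. The counts and medians that rest on it are therefore also given without it. Clean-air libraries with title numbers over 100 (RNA_101 to RNA_106) stood apart from those numbered 1 to 6 in their ribosomal protein genes. The members' comparisons with clean air are also split there, as the rule asked, which was chosen with earlier results of these data known. In C57BL/6J the split sets 1 library, RNA_106, apart.

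Ribosomal protein genes together took about 1% of each library's counts, and the clean-air libraries numbered over 100 held the most. Their share was 1.15% ± 0.173 in the CAST/EiJ BD libraries (SD, n = 6), or 1.21% ± 0.0784 without RNA_8 (n = 5). In CAST/EiJ clean air it was 1.55% ± 0.0957 for RNA_101 to RNA_105 (n = 5), and 1.14% and 1.22% for RNA_1 and RNA_2. In C57BL/6J the share was 1.13% ± 0.0590 under BD (n = 6), 1.41% in clean-air RNA_106, and 1.07% ± 0.0469 in clean-air RNA_3 to RNA_6 (n = 4). The highest CAST/EiJ BD share, 1.32%, lay below the lowest of RNA_101 to RNA_105, 1.42%, while RNA_1 and RNA_2 lay within the range of the BD libraries. RNA_8 held the lowest share of all, 0.827%, with an exact (Clopper-Pearson) 95% binomial interval of 0.823% to 0.831% that covers counting error only.

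**Figure D1:**
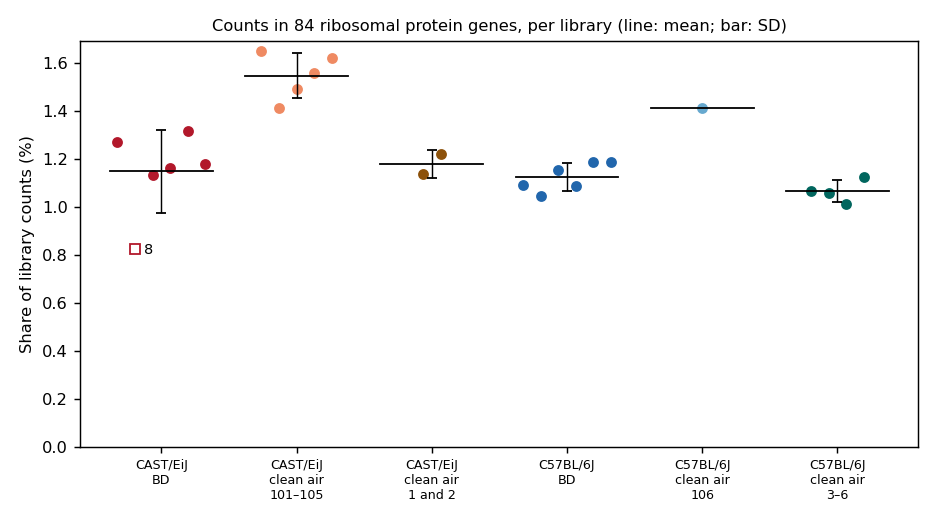
Share of each library's gene counts, in percent, that fell in the 84 ribosomal protein genes, with groups on the horizontal axis, 1 point per library, the mean as a line and the SD as a bar (open square: RNA_8). The 5 CAST/EiJ clean-air libraries RNA_101 to RNA_105, at 1.42% or more, and C57BL/6J RNA_106, at 1.41%, sit above the BD libraries of their strain.

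In CAST/EiJ lungs, ribosomal protein genes were lower under BD than in clean air as a group, and the size of the difference depended on which clean-air libraries were set against BD. Of the 82 members with enough counts to test, 38 fell and none rose by edgeR's quasi-likelihood test at a Benjamini-Hochberg adjusted p under 0.05 over all 17371 genes, against 13.8% of all genes called in either direction and 6.36% called lower. The members' median log2 fold was -0.38, within a range of -0.69 to 0.14, against a median of 0.00 over all genes tested. The fallers comprised 24 of 49 large-subunit genes and 14 of 33 small-subunit genes. In the same comparison 2 of 3 club cell markers, 2 of 4 alveolar type 1 markers, 1 endothelial and 1 erythroid marker fell, and their part in the result was not tested. Without RNA_8, 14 members fell, all of them among the 38, with a median of -0.29, where 7.22% of all genes were called and 3.37% lower. With the BD and clean-air groups of CAST/EiJ fitted alone no member was called, although 56 were lower at an unadjusted p under 0.05, while DESeq2 called 51. Leaving out any of 9 libraries moved the count by over 1.5 times: to 13, 21, 17, 9 and 11 without RNA_101, RNA_102, RNA_103, RNA_104 and RNA_105, to 61 without RNA_1, and to 14, 24 and 23 without RNA_8, RNA_9 and RNA_10. Except without RNA_8, the share of all genes called was not counted in these other fits, so whether it moved too is not known. Nor is the share of all genes at an unadjusted p under 0.05 given here.

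Against the 5 clean-air libraries numbered over 100, nearly all members were lower under BD: 69 of 82 fell and none rose, with a median log2 fold of -0.49, where 28.7% of all genes were called in either direction and 13.9% were lower. Without RNA_8, 74 fell, with a median of -0.40, where 26.9% of all genes were called and 13.7% lower. In 49 of the 82 members (59.8%) every BD library other than RNA_8 lay below every one of RNA_101 to RNA_105, which held for 8.13% of all genes. Set against clean-air RNA_1 and RNA_2 instead, no member passed edgeR's test or DESeq2's, and none had an unadjusted p under 0.05, with a median of -0.06 and 2.65% of all genes called. Without RNA_8 that comparison again gave no call by edgeR, 1 member at an unadjusted p under 0.05, a median of 0.03 and a background of 4.1%. Both splits use the same BD libraries, and the difference between them is the difference between the clean-air numbers, which is tested further on.

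**Figure D2:**
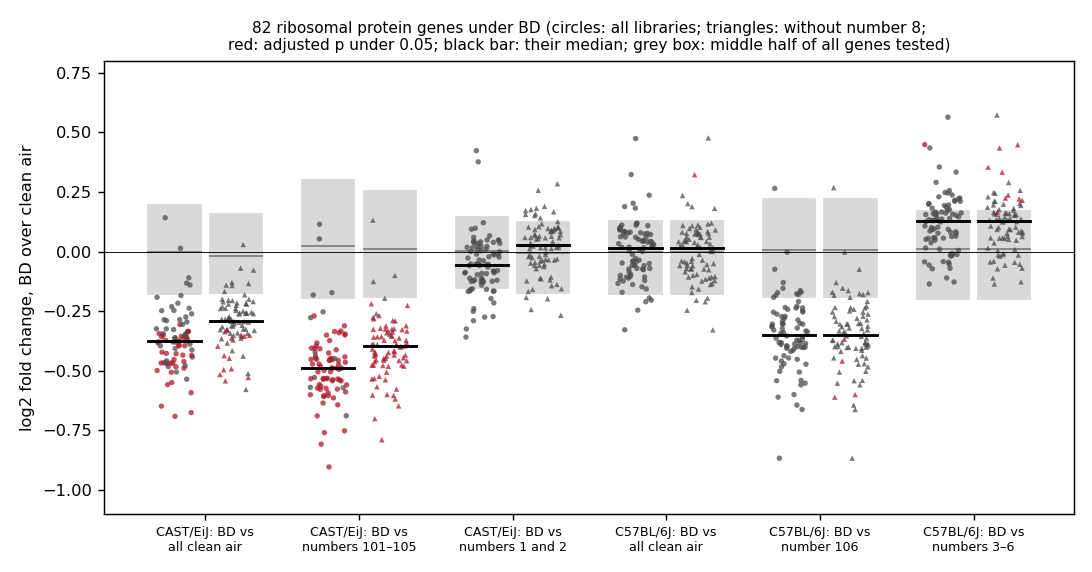
Log2 fold change, BD over clean air, of the 82 tested ribosomal protein genes (vertical axis) in 6 comparisons (horizontal axis), with circles for all libraries, triangles without RNA_8, red for an adjusted p under 0.05, a black bar for the members' median and a grey box for the middle 50% of all genes tested. In CAST/EiJ the median is -0.49 against RNA_101 to RNA_105 and -0.06 against RNA_1 and RNA_2. In C57BL/6J it is -0.35 against RNA_106 and 0.13 against RNA_3 to RNA_6.

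The stalk of the large subunit, built of Rplp0, Rplp1 and Rplp2, recruits the GTPases that drive each step of translation. All 3 of its genes fell under BD in CAST/EiJ against all clean air. Rplp2 had 72.3, 91.7 and 107 CPM (lowest, median and highest of 6) under BD, against 149, 139, 162, 155 and 159 CPM in clean-air RNA_101 to RNA_105 and 88.4 and 102.6 CPM in RNA_1 and RNA_2. All BD libraries lay below all of RNA_101 to RNA_105, and RNA_1 and RNA_2 lay inside the BD range. Its log2 fold was -0.59 ± 0.15 (SE, edgeR adjusted p = 0.0193) against all clean air, -0.75 (adjusted p = 0.000147) against numbers over 100 and -0.09 (adjusted p = 0.917) against RNA_1 and RNA_2. Without RNA_8 the call against all clean air held (log2 fold -0.54, edgeR adjusted p = 0.0426).

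Rplp1 had 109, 193 and 227 CPM under BD in CAST/EiJ, against 479, 229, 358, 336 and 326 CPM in clean-air RNA_101 to RNA_105 and 157 and 197 CPM in RNA_1 and RNA_2. The BD libraries again lay below all 5 libraries numbered over 100, by a narrow margin below RNA_102. Its log2 fold of -0.69 ± 0.21 (SE, edgeR adjusted p = 0.0369) was the lowest of all members, and without RNA_8 it was -0.58 and not called (adjusted p = 0.0855). Rplp0 had 251, 278 and 317 CPM under BD, against 433, 374, 370, 398 and 398 CPM in RNA_101 to RNA_105 and 258 and 284 CPM in RNA_1 and RNA_2. Here too the BD libraries did not overlap RNA_101 to RNA_105, with a log2 fold of -0.49 (edgeR adjusted p = 1.27e-05) between them. Against all clean air it was -0.36 ± 0.10 (SE, edgeR adjusted p = 0.0287), and without RNA_8 -0.33 and not called (adjusted p = 0.0610).

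Rpl38, which in mouse embryos is known for its part in the translation of Hox messenger RNAs, and Rpl9, another protein of the large subunit, completed the 4 largest falls with Rplp1 and Rplp2. Rpl38 had 76.7 to 92.5 CPM in the 5 BD libraries other than RNA_8, which had 31.4 CPM, against 119, 112, 138, 135 and 167 CPM in clean-air RNA_101 to RNA_105 and 89.0 and 94.7 CPM in RNA_1 and RNA_2. Its log2 fold was -0.68 ± 0.18 (SE, edgeR adjusted p = 0.0241), or -0.52 without RNA_8 (adjusted p = 0.0264). Rpl9 had 98.3 to 125 CPM in those 5 BD libraries and 42.1 CPM in RNA_8, against 152, 140, 169, 161 and 221 CPM in RNA_101 to RNA_105 and 115 and 132 CPM in RNA_1 and RNA_2. Both genes were lower in every BD library than in any library numbered over 100, while for both RNA_1 lay inside the range of the BD libraries and RNA_2 just above it. The log2 fold of Rpl9 was -0.65 ± 0.18 (SE, edgeR adjusted p = 0.0262), or -0.49 without RNA_8 (adjusted p = 0.0302).

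The smallest called falls were those of Rps21 (log2 fold -0.35), Rpl35a (-0.34), Rps4x (-0.33) and Rpl24 (-0.31), and none of these was called without RNA_8 (edgeR adjusted p of 0.101, 0.0649, 0.1022 and 0.0873 in that order). Rpl5 and Rpl11, which with 5S RNA bind the p53 regulator Mdm2, had log2 folds of -0.44 and -0.36, and were picked here after their values were seen. Without RNA_8 neither was called (log2 folds of -0.34 and -0.27, edgeR adjusted p of 0.0923 and 0.1007). Rpsa, a small-subunit protein also known as a laminin receptor, had 228 to 263 CPM in the 5 CAST/EiJ BD libraries other than RNA_8, which had 90.1 CPM, against 291, 295, 298, 318 and 331 CPM in RNA_101 to RNA_105 and 218 and 250 CPM in RNA_1 and RNA_2. Against numbers over 100 it fell by 0.47 on the log2 scale (edgeR adjusted p = 0.0385), and against all clean air, without RNA_8, its log2 fold was -0.22 (adjusted p = 0.133). Rps2 fell by 0.47 on the log2 scale (edgeR adjusted p = 0.0208), or by 0.35 without RNA_8 (adjusted p = 0.0301), and Rpl21 had a log2 fold of -0.14 that did not pass (adjusted p = 0.288).

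In C57BL/6J lungs, the ribosomal protein genes under BD centred near their clean-air level. Against all 5 clean-air libraries no member was called by edgeR or DESeq2 and none had an unadjusted p under 0.05, where 7.47% of all genes were called. The median log2 fold was 0.02, within a range of -0.33 to 0.47. Without RNA_8, which is no part of this contrast but enters the shared estimate of the spread, Rpl7a was called (log2 fold 0.32, edgeR adjusted p = 0.0241) where 10.7% of all genes were called and 4.2% higher. Without RNA_106, or with the C57BL/6J groups fitted alone, 1 member was called as well.

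Against clean-air RNA_3 to RNA_6 alone, 1 member rose under BD in C57BL/6J and none fell, where 11.9% of all genes were called and 5.45% higher, with a median of 0.13. The riser was Rps27l, a copy of Rps27 that is known as a p53 target in human and mouse cells. Rps27l had 35.7, 46.0 and 55.1 CPM (lowest, median and highest of 6) under BD, against 58.1 CPM in clean-air RNA_106 and 40.0, 27.3, 32.2 and 35.7 CPM in RNA_3 to RNA_6. RNA_14, at 35.7 CPM, was the only BD library not above all of RNA_3 to RNA_6, and RNA_106 was above every BD library. The log2 fold against RNA_3 to RNA_6 was 0.45 (edgeR adjusted p = 0.0200).

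Without RNA_8 that comparison gave 9 risers and no faller, against a background of 17% of all genes in either direction and 8.14% higher. They were Rps27l (log2 fold 0.45), Rpl7a (0.43), Rpl36a (0.35), Rpl26 (0.33), Rpl37a (0.24), Rpl7 (0.22), Rps4x (0.22), Rpl7l1 (0.21) and Rpl15 (0.17). Rpl7a, a protein of the large subunit, had 54.6 to 66.9 CPM in the 6 BD libraries, against 62.2 CPM in RNA_106 and 47.2, 42.5, 49.4 and 46.2 CPM in RNA_3 to RNA_6. All BD libraries were above all of RNA_3 to RNA_6, an arrangement found in 6 of 82 members (7.32%) and in 7.27% of all genes, so the share among members was that of the background. Without RNA_4, RNA_5 or RNA_17 no member was called against RNA_3 to RNA_6. Against RNA_106, a single library, no member was called by edgeR although 32 were lower at an unadjusted p under 0.05, with a median of -0.35 and a background of 0.402%. DESeq2 called 2 there, and edgeR called 4 lower without RNA_8, against a background of 1.41% in either direction and 0.478% lower.

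Whether the BD difference itself differed between the strains was tested as an interaction. It was called for 1 of 82 members, lower in CAST/EiJ, against 11.7% of all genes in either direction and 4.59% lower. The members' median was -0.40 on the log2 scale, and 34 were lower at an unadjusted p under 0.05, for which no share of all genes is given. The called gene was Rpl22l1, a copy of Rpl22 (interaction -0.58 ± 0.19, SE, edgeR adjusted p = 0.0465). It had 25.8, 41.2 and 43.6 CPM in CAST/EiJ BD libraries, against 66.1, 46.1, 47.6, 53.0 and 60.4 CPM in clean-air RNA_101 to RNA_105 and 42.6 and 41.5 CPM in RNA_1 and RNA_2. In C57BL/6J it had 24.9, 29.3 and 34.9 CPM under BD, against 32.6 CPM in RNA_106 and 23.6, 23.9, 28.4 and 22.2 CPM in RNA_3 to RNA_6. In CAST/EiJ every BD library was below every library over 100, while in C57BL/6J BD and clean air overlapped.

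The call depended on single libraries. Without RNA_8 its adjusted p was 0.0609 by edgeR, and the 1 member then called was Rpl7a (-0.46, adjusted p = 0.0301), against 9.44% of all genes in either direction and 3.82% lower. The count was 33 without RNA_106, 22 without RNA_1, 9 without RNA_2, 3 without RNA_11 and 2 without RNA_102. It was 0 without any of RNA_3 to RNA_6, RNA_10, RNA_15 to RNA_18, RNA_101 and RNA_103 to RNA_105. For these fits the share of all genes called was not counted. With clean-air numbers under 100 only, no member was called by edgeR or DESeq2, 1 had an unadjusted p under 0.05 and the median was -0.18, where 0.57% of all genes were called. Without RNA_8 edgeR again called none there, 4 had an unadjusted p under 0.05, the median was -0.09 and the background was 2.55%.

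The clean-air libraries themselves differed by number in CAST/EiJ, and in C57BL/6J the single library over 100 lay on the same side. In CAST/EiJ, RNA_101 to RNA_105 were on average higher than RNA_1 and RNA_2 in 81 of 82 members, of which 30 passed the test and none was called lower, where 14% of all genes were called in either direction and 4.92% were higher. The median log2 fold was 0.43, within -0.33 to 0.95. In 60 of 82 members (73.2%) every library over 100 exceeded both RNA_1 and RNA_2, against 17.1% of all genes. The largest called value was that of Rplp1 (log2 fold 0.95, edgeR adjusted p = 0.0203), followed among the stalk genes by Rplp2 (0.66, adjusted p = 0.0152) and Rplp0 (0.53, adjusted p = 0.000434). The count was 62 without RNA_8 (background 19.5% in either direction and 7.77% higher), 49 without RNA_102, 7 without RNA_2 and 1 without RNA_1. DESeq2 called 44.

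In C57BL/6J clean air, RNA_106 was higher than the mean of RNA_3 to RNA_6 in 82 of 82 members. None passed edgeR's test against a single library, where 0.25% of all genes were called, but 49 were higher at an unadjusted p under 0.05 and DESeq2 called 8. The share of all genes at an unadjusted p under 0.05, or called by DESeq2, is not given here, so those counts have no background. The median log2 fold was 0.46, within 0.21 to 0.79. Without RNA_8, 17 were called higher, against 1.26% of all genes in either direction and 0.598% higher, led by Rps27l (0.79), Rps21 (0.66), Rpl31 (0.66), Rpl37a (0.61) and Rpl35a (0.60), and without RNA_6 it was 1. Over 82 genes the 2 number-series differences had a Pearson r of 0.166 and a Spearman rho of 0.132. These comparisons share no library, but the differences rest on 2 libraries and on 1 library, and genes are not independent replicates.

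Other genes moved with the number series in CAST/EiJ as well. In CAST/EiJ, 3 of 4 alveolar type 2 markers were called higher in RNA_101 to RNA_105 than in RNA_1 and RNA_2, with sums of 21132 to 25416 CPM against 15210 and 17038 CPM. For alveolar type 1 markers it was 3 of 4, with sums of 2987 to 3977 CPM against 2004 and 2162 CPM, and for endothelial markers 2 of 3, with sums of 1327 to 1535 CPM against 1042 and 1069 CPM. All 5 liver genes were called lower, with sums of 3.60 to 9.98 CPM in RNA_101 to RNA_105, against 129 and 1500 CPM in RNA_1 and RNA_2. The CAST/EiJ BD libraries had type 2 sums of 16747 to 23556 CPM, type 1 sums of 1710 to 2651 CPM and endothelial sums of 1032 to 1300 CPM. Apart from the number series, RNA_106 stood out from RNA_3 to RNA_6 in squamous epithelium genes (1621 against 4.84 to 18.01 CPM) and heat shock genes (3270 against 1443 to 1625 CPM). In CAST/EiJ clean air squamous sums did not follow the numbers, with 2165.9 and 2008 CPM in RNA_101 and RNA_102, 13.3 to 23.9 CPM in RNA_103 to RNA_105, and 702 and 40.0 CPM in RNA_1 and RNA_2. The part of these shifts in the ribosomal protein differences was not tested.

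Between the strains, ribosomal protein genes differed over a wider range than between BD and clean air, some several-fold higher and some several-fold lower in CAST/EiJ. In clean air, 51 members were higher and 8 lower in CAST/EiJ than in C57BL/6J, against 59.4% of all genes called in either direction, 28.9% higher and 30.4% lower. The median log2 fold was 0.40, within -2.51 to 2.14, and the SD of the fold over members was 0.801, against 0.153 for the number-series difference in CAST/EiJ. Most CAST/EiJ clean-air libraries but only RNA_106 in C57BL/6J are numbered over 100. Within the number series the median was smaller, 0.25 with numbers under 100 and 0.16 with numbers over 100. Large-subunit genes gave 34 of the higher and 3 of the lower calls, and small-subunit genes 17 and 5. Under BD, 22 were higher and 14 lower in CAST/EiJ, against 34.7% of all genes (17.2% higher, 17.5% lower), with a median of 0.06. All 22 were among the 51, and all 8 lower in clean air were among the 14. Without RNA_8 it was 26 higher and 14 lower under BD, against 42.7% (20.4% higher, 22.3% lower), with a median of 0.14. In clean air the fit without RNA_8 gave 55 higher and 8 lower, against 60.4% (29.4% higher, 31% lower).

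CAST/EiJ is a wild-derived strain, and its sequence differs from the mm9 reference, which comes from C57BL/6J. Reads that carry strain differences can be lost, or moved to or from a pseudogene or copy, so members with a clean-air strain log2 fold of 0.75 or more in either direction are called possible mapping cases here. There were 28, 23 higher and 5 lower in CAST/EiJ. The nearest member outside was Rpl7a (0.74), and the nearest inside were Rps16 (0.76) and Rpl41 (0.77). The choice used the fold over all clean-air libraries, and a choice within the number series would differ. Rps19, outside, had -0.79 with numbers under 100 and -0.82 with numbers over 100, while Rpl41, inside, had 0.53 in both. Without them 28 members were higher and 3 lower of 54 in clean air. Every case was itself called there, so that drop follows from the choice and says nothing of mapping. Under BD 3 of the 54 were higher and 9 lower, where 17.2% of all genes were called higher and 17.5% lower. Without RNA_8 it was 5 and 9, where 20.4% were called higher and 22.3% lower. The BD fall in CAST/EiJ, counted without them, was 28 of 54 against all clean air, 8 of 54 without RNA_8, and 49 of 54 against numbers over 100. Of all genes 6.36%, 3.37% and 13.9% were called lower in these 3 comparisons, in that order. Of the 28 cases 22 have at least 1 named pseudogene in RefSeq, with a median of 2, and so do 42 of the other 54, also with a median of 2. Mapping itself was not tested.

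Rpl21, Rpl35a and Rps2 were the furthest below in CAST/EiJ, with no overlap between the strains. Rpl21, a protein of the large subunit, had 12.6, 17.4 and 19.0 CPM under BD in CAST/EiJ and 16.7, 17.5, 20.2, 21.6, 19.5, 18.6 and 16.4 CPM in its clean air. In C57BL/6J it had 94.4, 99.8 and 107 CPM under BD and 131, 104.7, 93.9, 95.1 and 106.3 CPM in clean air. Its strain log2 fold was -2.51 in clean air (edgeR adjusted p = 1.95e-15) and -2.56 under BD (-2.49 without RNA_8).

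Rpl35a, which is known from human Diamond-Blackfan anaemia, had 14.1, 16.4 and 18.2 CPM under BD in CAST/EiJ, against 86.0, 93.3 and 101.3 CPM in C57BL/6J. In clean air it had 16.8 to 25.2 CPM in CAST/EiJ, against 79.1 to 132 CPM in C57BL/6J, a log2 fold of -2.23 (edgeR adjusted p = 3.35e-13). Rps2, a protein of the small subunit, had 8.49, 15.5 and 16.6 CPM under BD in CAST/EiJ, against 74.0, 76.9 and 89.9 CPM in C57BL/6J, and its clean-air log2 fold was -1.99 (edgeR adjusted p = 8.72e-11). Both genes were several-fold lower in every CAST/EiJ library than in any C57BL/6J library, RNA_8 included. Rpl29 (log2 fold -1.57) and Rps4l (-1.35) completed the 5 lower cases.

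Rps12, Rpl37a, Rps29 and Rps28 were the furthest above. Rps12, of the small subunit, had 128 to 150 CPM in the 5 CAST/EiJ BD libraries other than RNA_8, which had 26.3 CPM, against 32.6, 37.9 and 39.6 CPM in C57BL/6J BD libraries. In clean air it had 157, 169, 181, 182, 201, 124 and 135 CPM in CAST/EiJ, against 48.3, 31.2, 38.3, 35.7 and 32.3 CPM in C57BL/6J, a log2 fold of 2.14 (edgeR adjusted p = 1.63e-06). The strains separated completely apart from RNA_8. Rpl37a, of the large subunit, had 473, 411, 417, 449, 454, 287 and 323 CPM in CAST/EiJ clean air, against 157, 96.6, 108, 103.2 and 105.96 CPM in C57BL/6J clean air, a log2 fold of 1.81 (adjusted p = 3.93e-08). Rps29 (1.68) and Rps28 (1.62) followed, and the other 19 higher cases lay between 0.76 and 1.54.

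**Figure D3:**
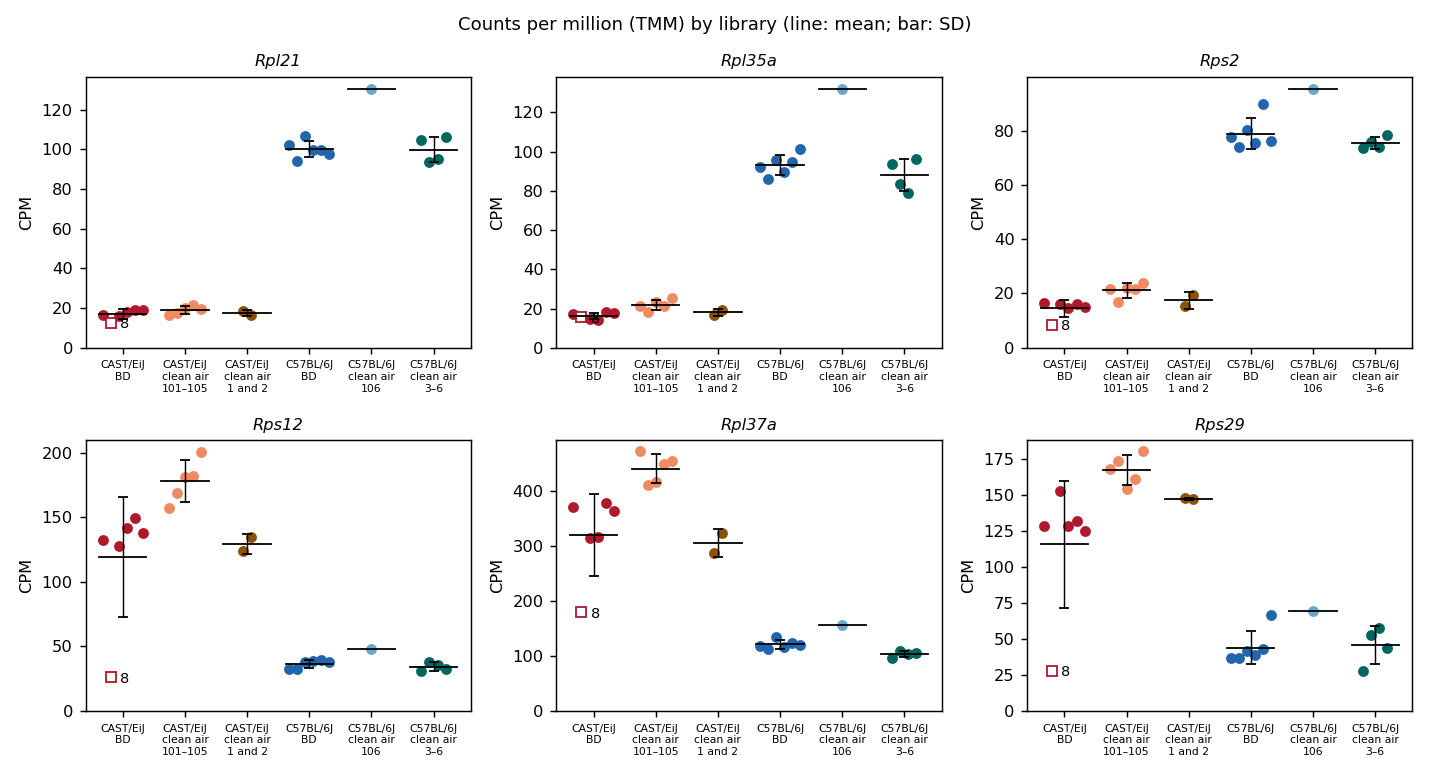
Counts per 1000000 (CPM, TMM-scaled) of Rpl21, Rpl35a, Rps2, Rps12, Rpl37a and Rps29 in each library, by group. CAST/EiJ libraries sit below C57BL/6J libraries for the first 3 genes (Rpl21: 12.6 to 21.6 against 93.9 to 131 CPM) and, without RNA_8, above them for the other 3 (Rps12: 124 to 201 against 31.2 to 48.3 CPM). RNA_8 lies among or below the C57BL/6J libraries for Rps12 (26.3 CPM) and Rps29 (28.2 CPM) and above them for Rpl37a (179 CPM).

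The strain differences of the members ran in much the same order wherever they were measured, though single members differed in size. Compared in clean-air numbers under 100, in clean-air numbers over 100 and under BD without RNA_8, which share no library, 70 of 82 members kept their sign in all 3, while 12 did not. All 28 possible mapping cases kept it. They were picked by a large clean-air fold, so their shared sign in the clean-air comparisons was largely fixed by that choice. Rps16, for example, had a log2 fold of 1.08 in numbers under 100, 0.41 in numbers over 100 and 0.94 under BD, and these differences in size were not tested. Over 82 genes the strain log2 folds under BD, without RNA_8, had a Pearson r of 0.990 (Spearman rho 0.973) with those in numbers under 100 and of 0.979 with those in numbers over 100, as a description across genes. With numbers under 100, 28 were higher and 10 lower in CAST/EiJ, where 38.8% of all genes were called, 21.4% higher and 17.3% lower. Without RNA_8 it was 36 and 10, where 42.9% were called, 23.2% higher and 19.7% lower, and without RNA_2 it was 23 in all. With numbers over 100, where C57BL/6J has RNA_106 alone, 12 were higher and 9 lower, where 21.2% were called, 9.5% higher and 11.7% lower. Without RNA_8 it was 25 and 9, where 28.8% were called, 13.2% higher and 15.6% lower.

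**Figure D4:**
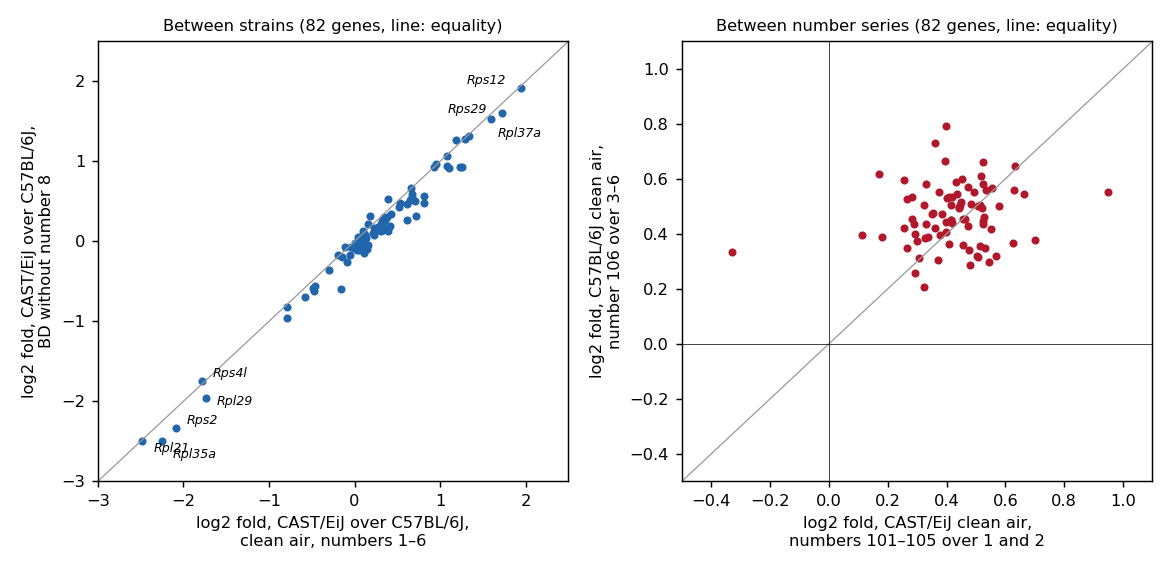
Left, log2 fold of CAST/EiJ over C57BL/6J for 82 genes in clean-air RNA_1 to RNA_6 (horizontal) and under BD without RNA_8 (vertical). Right, log2 fold of clean-air numbers over 100 against under 100 in CAST/EiJ (horizontal) and C57BL/6J (vertical). The strain folds lie along a line (r = 0.990), while the number-series folds form a cloud above 0 vertically and nearly all above 0 horizontally (r = 0.166).

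Some members are copies of other members, and each tested copy was set against its partner as a percent of the partner's counts, unscaled for length. Rpl22l1 had 25.1% ± 3.67 of the counts of Rpl22 in CAST/EiJ BD libraries (SD, n = 6; 26.6% ± 1.28 without RNA_8) and 28.3% ± 4.26 in CAST/EiJ clean air (n = 7; 28.7% ± 5.15 in numbers over 100 and 27.3% ± 0.211 in RNA_1 and RNA_2). In C57BL/6J it had 19.6% ± 1.80 under BD (n = 6) and 17.3% ± 1.97 in clean air (n = 5). Rps27l had 101.9% ± 19.1 of Rps27 in CAST/EiJ under BD and 88.7% ± 23.1 in its clean air (91.0% ± 27.8 in numbers over 100 and 82.8% ± 5.51 in RNA_1 and RNA_2), against 55.2% ± 6.56 and 47.9% ± 10.4 in C57BL/6J. Rpl7l1 had 18.7% ± 1.53 of Rpl7 in CAST/EiJ BD, 16.9% ± 2.04 in CAST/EiJ clean air, 15.7% ± 0.71 in C57BL/6J BD and 15.7% ± 1.42 in C57BL/6J clean air. The CAST/EiJ BD value of Rpl7l1 lay above that of clean-air numbers over 100, 15.96% ± 0.649, and below that of RNA_1 and RNA_2, 19.3% ± 2.65. Rps4l had 1.43% ± 0.195 of Rps4x in CAST/EiJ BD without RNA_8, 1.54% ± 0.277 in CAST/EiJ clean air, 4.03% ± 0.478 in C57BL/6J BD and 4.30% ± 0.913 in C57BL/6J clean air.

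Rpl3l, the striated-muscle copy of Rpl3, was near 1% of Rpl3 in all groups but uneven within them. It had 7.30 and 7.07 CPM in CAST/EiJ clean-air RNA_101 and RNA_102, against 0.719 to 1.02 CPM in RNA_103 to RNA_105. The skeletal muscle genes summed to 2445 and 2184 CPM in RNA_101 and RNA_102, against 46.9 to 56.3 CPM in RNA_103 to RNA_105. Among BD libraries RNA_11 and RNA_7 had the most Rpl3l, 4.60 and 3.36 CPM, with muscle sums of 1387 and 1301 CPM. The 4 libraries with the highest Rpl3l were thus those with the most muscle transcripts, a list that was added after values were seen and gets no test, and also those with the most squamous epithelium transcripts (2165.9, 2008, 2329 and 1767 CPM).

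A pair of members had too few counts to test. Rpl10l, a testis copy of Rpl10, had 2 counts in all, in 2 of 24 libraries, and Rpl39l, a testis copy of Rpl39, had 32 counts in all, at most 5 in a library. Some entries cannot be told apart by these counts: Rpl26 had the same counts as Gm15772 in every library, Rpl34 was within 2.13% of Rpl34-ps1, and Rps27 within 2.64% of Rps27rt, where copies within 5% were counted as matching. Of the ribosomal protein genes outside the naming rule, Rps27rt (log2 fold -0.55) and Rpl36al (-0.36; not called without RNA_8, edgeR adjusted p = 0.0717) fell under BD in CAST/EiJ, and Fau had -0.44 and did not pass (edgeR adjusted p = 0.187).

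The library labelled CAST/EiJ BD RNA_8 was low in ribosomal protein genes. It was the lowest of the 12 BD libraries in 55 of 82 members (67.1%), against 9.63% of all genes, and the highest in none, while the next library was lowest in 10. Rpl7a had 10.3 CPM in RNA_8, against 69.1 to 79.3 CPM across the 5 remaining CAST/EiJ BD libraries and 54.6 to 66.9 CPM in C57BL/6J BD libraries. Rpl36 had 10.7 CPM there, against 40.1 to 76.9 CPM and 37.0 to 57.4 CPM in those same groups.

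Set between the strains, RNA_8 did not follow one of them throughout. Of 13 members at least 0.75 higher (log2) in the other CAST/EiJ BD libraries than in C57BL/6J BD, it was nearer C57BL/6J in 10. Of these 13, 7 lay below every other BD library, 2 lay within the C57BL/6J range and 1 within the CAST/EiJ range. Of 7 at least 0.75 lower, RNA_8 was nearer CAST/EiJ in 5, which were Rpl21, Rpl35a, Rps2, Rps19 and Rps18, and nearer C57BL/6J in Rpl29 and Rps4l. Of these 7, 4 lay below every other BD library, 0 within the C57BL/6J range and 1 within the CAST/EiJ range. RNA_8 was low in most members, so nearness went mostly to whichever strain was lower, and these counts do not place it with either strain. Rpl29 had 28.6 CPM in RNA_8, against 6.20 to 9.84 CPM across the remaining CAST/EiJ BD libraries and 29.8 to 36.1 CPM in C57BL/6J BD libraries. The median difference of RNA_8 from the C57BL/6J BD mean was -0.47 over the 13 members, -1.82 over the 7 and -0.39 over the other 62, of which 44 lay below every other BD library.

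**Figure D5:**
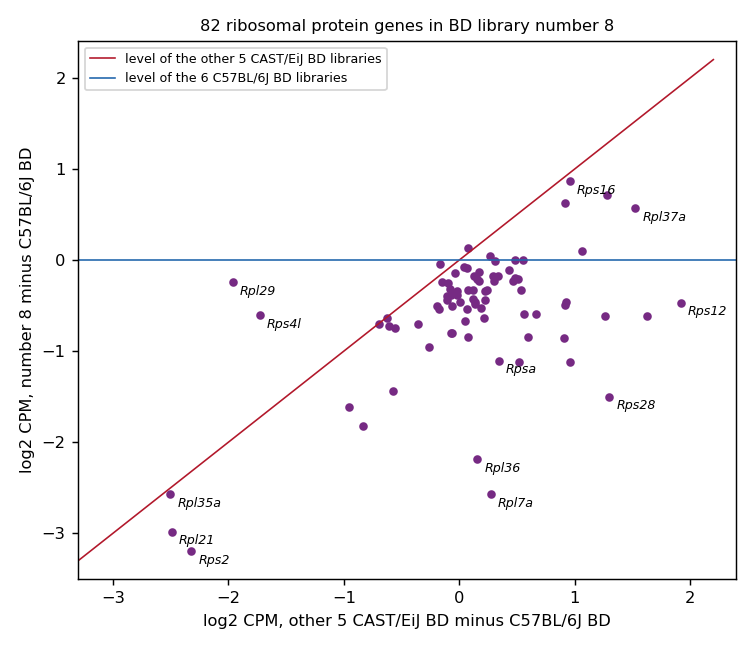
For 82 genes, log2 difference from the C57BL/6J BD mean of RNA_8 (vertical) and of the other 5 CAST/EiJ BD libraries (horizontal). Points on the red line are at the CAST/EiJ level and points on the blue line at the C57BL/6J level; most members lie below the blue line, with a median of -0.39 among the 62 that differ little between strains.

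Genes that work with the ribosome were described by the same counts. Under BD in CAST/EiJ, against all clean air, 8 of 30 other TOP genes fell and none rose (median log2 fold -0.21), among them Snhg8 (-0.53) and Tpt1 (-0.49); without RNA_8 1 fell, and it was neither of these. Of 52 ribosome biogenesis genes 5 fell (median -0.09; 2 without RNA_8), among them Nhp2 (-0.43, or -0.36 without RNA_8). Of all genes 6.36% were called lower, or 3.37% without RNA_8, so the biogenesis counts and the TOP count without RNA_8 stood near the background. Of 26 genes that control translation 7 rose and 2 fell (median 0.06), where 1285 of all 17371 genes rose and 1105 fell. Without RNA_8 it was 4 and 0, against 670 and 585 of all 17377 genes. The risers included Larp1, the TOP-binding protein (0.35, edgeR adjusted p = 0.0123), Tsc2, an inhibitor of mTORC1 (0.46, adjusted p = 0.0200), and Rps6kb2, a kinase of Rps6 (0.54, adjusted p = 0.00566), while Rheb, the activator of mTORC1, fell by 0.26. Without RNA_8 these log2 folds were 0.34 for Larp1 (edgeR adjusted p = 0.0246), 0.33 for Tsc2 (adjusted p = 0.0495) and 0.53 for Rps6kb2 (adjusted p = 0.00997), and Rheb was not called. Against numbers over 100, 8 of the 26 rose and 5 fell, with Larp1 at 0.46, Tsc2 at 0.49 and Rps6kb2 at 0.54. There 28.7% of all genes were called in either direction and 13.9% lower. Against RNA_1 and RNA_2 1 rose, Rps6kb2 (0.54, edgeR adjusted p = 0.0475), and none fell.

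Genes for proteins of the mitochondrial ribosome and of oxidative phosphorylation, which include no member, were lower in the same comparison. Of these, 19 of 76 and 30 of 79 fell and none rose, with medians of -0.24 and -0.29, where 6.36% of all genes were called lower. Without RNA_8, 7 and 11 fell, where 3.37% of all genes were called lower. The fallers included Mrps28 (log2 fold -0.67), Mrpl52 (-0.66) and Ndufs7 (-0.52), which were called without RNA_8 too (-0.63, -0.61 and -0.48). Against numbers over 100, 46 and 49 fell, with 1 riser in each list, along with 16 TOP genes and 12 biogenesis genes, of which lists 0 and 2 genes rose. In that comparison 28.7% of all genes were called in either direction and 13.9% lower. Against RNA_1 and RNA_2 the counts of fallers were 0 and 1, and 0 in both other lists, where 2.65% of all genes were called in either direction. In C57BL/6J under BD, against all clean air, these 5 lists gave 1 riser, among the mitochondrial ribosomal protein genes, and 4 fallers, where 7.47% of all genes were called. The fallers included Pabpc1 (-0.58), the poly(A)-binding protein, and Eif3f (-0.37), an initiation factor subunit. In clean air, 52 of the 76 mitochondrial ribosomal protein genes and 68 of the 79 oxidative phosphorylation genes were higher in CAST/EiJ than in C57BL/6J, where 28.9% of all genes were called higher. Their medians were 0.40 and 0.48, beside the members' 0.40. The members' median was 0.25 with numbers under 100 and 0.16 with numbers over 100. With numbers under 100 the counts were 34 and 51, where 21.4% of all genes were called higher, and with numbers over 100 they were 10 and 6, where 9.5% were.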

How the data were processed

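Lung RNA was purified with a column kit and made into polyadenylated-RNA libraries, per the labels' protocols. The authors deposited whole-number counts per gene. Per the submitters' processing notes, GSNAP and the build mm9 were used; their versions, the counting tool, annotation and strand setting are not given in the sources used here. Small RNA and ATAC samples were not analysed here.

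The 23872 entries with a value in every library were used; 21 entries have none in CAST/EiJ columns. CPM are counts per 1000000 scaled by TMM, not per length, so levels are not compared between genes. The test was edgeR 4.0.16 (R 4.3.3), quasi-likelihood with TMM and edgeR's low-count filter, over 4 groups of strain by exposure (17371 genes) and, for the split, 6 groups (18407 genes), with Benjamini-Hochberg adjustment over all genes and a threshold of 0.05. A change shown is the log2 fold of BD over clean air, CAST/EiJ over C57BL/6J, or numbers over 100 over the rest. Every fit was repeated without RNA_8 (17377 and 18401 genes), with DESeq2 1.42.0, other scalings, no filter, only the 2 groups compared (for BD within a strain and strain within an exposure), and single libraries left out. The script was tested on simulated counts.

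Genes named were Rplp0, Rplp1, Rplp2, Rpsa, Rpl21, Rpl35a, Rps2, copies with their partners, the 4 highest and 4 lowest called per comparison and up to 3 per list and direction; other members named (Rpl5, Rpl11, Rpl36, Rps16, Rps18, Rps19 and those listed in the split comparisons) were picked after their values were seen. The members, lists and rule were chosen with earlier results of these data known, and the skeletal muscle list after values were seen. Exact intervals cover counting error only. Shares of all genes called are edgeR's at the adjusted threshold, and none is given for unadjusted p-values or for DESeq2. Promoter sequences are RefSeq's.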

Additional observations from a re-analysis of the deposited data

Results flagged for a closer look

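A test for 1 value far from the others (Dixon's, at 95%) was run 116 times, each on 1 quantity in 1 of the 4 groups of 5 to 7 libraries. These runs share libraries and are not independent. The test marked 20, where chance marks about 1 in 20, or 5.8. Library RNA_8 accounted for 12 of them. Against the other 5 CAST/EiJ BD libraries it was low in Rpl22l1 (25.8 against 38.1 to 43.6 CPM), Rpl3 (100.2 against 216 to 266), Rpl37a (179 against 315 to 377), Rpl38 (31.4 against 76.7 to 92.5), Rpl9 (42.1 against 98.3 to 125) and Rps12 (26.3 against 128 to 150). It was also low in Rps2 (8.49 against 14.6 to 16.6 CPM), Rps27l (40.0 against 54.2 to 59.7), Rps29 (28.2 against 125 to 153) and Rpsa (90.1 against 228 to 263). It was high in Rpl29 (28.6 against 6.20 to 9.84 CPM) and Rps4l (9.33 against 3.95 to 5.01).

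In C57BL/6J clean air, RNA_106 was high in the share of counts in members (1.41%), Rpl22 (184 against 139 to 149 CPM), Rpl37 (115 against 73.0 to 84.4), Rpl37a (157 against 96.6 to 108) and Rps2 (95.4 against 73.6 to 78.5). Among C57BL/6J BD libraries, RNA_18 was high in Rpl39 (122 against 74.0 to 89.8 CPM) and Rps29 (66.7 against 36.7 to 43.5). In CAST/EiJ clean air, RNA_101 was high in Rps28 (223 against 95.7 to 130 CPM).

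Rpl22l1 was marked because its BD difference was called different between the strains, by -0.58 on the log2 scale.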

How the results depend on the processing

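No paired analysis was possible because library numbers are not shared between the groups. The members' median log2 fold moved by less than the within-group SD of single-library medians (0.20 over 4 groups, 0.15 over 6) under every alternative run. That limit is wide for a comparison of group means, so staying within it says little. The interaction median, for example, ran from -0.50 to -0.32 as single libraries were left out. The median changed sign, near 0, for BD in C57BL/6J without each of RNA_3 to RNA_6, RNA_17 and RNA_18, and for BD against RNA_1 and RNA_2 without RNA_8 (to 0.03) or RNA_2. Of 3191 values of named genes 3030 kept their call or lack of one, 56 gained a call and the rest lost one. None called in either fit changed direction. Changes of sign in values called in neither fit were not counted. The interaction of Rpl21 was such a value, at -0.06 with all libraries and 0.02 without RNA_8. The counts of members called moved by over 1.5 times as follows. For BD in CAST/EiJ (38) they were 20 with no low-count filter, 14 without RNA_8 and 0 with the groups alone. For BD in C57BL/6J (0) they were 1 without RNA_8 and 1 with the groups alone; against RNA_3 to RNA_6 (1), 9 without RNA_8; against RNA_106 (0), 2 with DESeq2 and 4 without RNA_8. For the interaction (1) they were 5 with DESeq2 and 0 with no filter. For RNA_106 against RNA_3 to RNA_6 (0) they were 8 with DESeq2 and 17 without RNA_8, for numbers over 100 against RNA_1 and RNA_2 in CAST/EiJ (30), 62 without RNA_8, and for the strains in numbers over 100 (21), 34 without RNA_8. Leaving out 1 library at a time gave 9 to 61 members for BD in CAST/EiJ, 0 to 1 for BD in C57BL/6J, 62 to 74 against numbers over 100, 0 to 0 against RNA_1 and RNA_2, 0 to 9 against RNA_3 to RNA_6 and 0 to 4 against RNA_106. It gave 53 to 67 for the strains in clean air, 32 to 40 under BD, 23 to 46 with numbers under 100 and 19 to 34 with numbers over 100. It gave 0 to 33 for the interaction (0 to 0 with numbers under 100), 1 to 62 for the number series in CAST/EiJ and 0 to 17 in C57BL/6J. A fit that leaves out RNA_106 gives no value for comparisons with it. Except without RNA_8, no share of all genes called was counted for these runs, so the counts cannot be set against a background. The causes were not tested.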
